A study of Mus musculus with 36 samples.

Results

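Genes encoded on the mouse mitochondrial genome were followed by RNA sequencing in C2C12 cells, an established mouse myoblast line, meaning muscle precursors that still divide. The members were all rows whose chromosome is given as MT, which came to 35 of the 49315 genes in the files. They are the 13 messenger RNAs (messages) and the 22 transfer RNAs of that genome. The mitochondrial ribosomal RNAs were not analysed here. There were 18 libraries of polyadenylated RNA, 3 in each of 6 groups. Cultures were kept aboard the space station either without gravity or with gravity, as the labels word it, or on land, and each regime was sampled without and with nanoceria (cerium oxide nanoparticles) at 100 µg/ml. All groups were the same line, with 3 experiment units per group. The land cultures were a separate repeat done afterwards in the same hardware, so regime and run cannot be told apart wherever space is set against land.

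The mitochondrial genome is a small circle in many copies per cell. It encodes core subunits of the respiratory chain and of ATP synthase, which make ATP from oxygen, and the transfer RNAs needed to translate them, while all other proteins of the organelle come from nuclear genes. Both strands are transcribed as long precursors that are cut into single RNAs, mostly at the transfer RNAs lying between the messages. Most messages then receive short poly(A) tails, whereas mature transfer RNAs carry none. Copies of stretches of this genome have also been inserted into nuclear chromosomes.

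Libraries held between 23858 and 11378178 counts, with at least 2986628 in all but 1. The smallest, space with gravity with nanoceria replicate 3, held 33 mitochondrial counts, all in messages, against 3882 to 24586 mitochondrial counts in the other 17. A set of 6 genes (Lars2, Gm23935, Gm15564, Gm24270, Gm24187 and Gm25911) took 23.8% to 54.4% of counts in space with gravity, 40.7% to 70.3% in space without gravity and 49.6% to 76.3% on land. Shares below are of the counts outside these 6 genes. There, 3 counts, taken as the smallest signal a library can show, corresponded to 165 CPM (the count scaled to library size) in the smallest library and to 0.350 to 2.41 CPM in the others. These limits and all intervals for single libraries cover counting error only. Of the myoblast markers, Myf5, Des and Vim had counts in 18 of 18 libraries. Pax7 had counts in 14 libraries and Myod1 in 10, at medians of 0.583 and 0.279 CPM. Ptprc and Epcam, which define leukocytes and epithelium, had median levels of 0. Of the 5 genes of differentiated muscle, Myog, Ckm and Myh3 had medians of 0. Tnnt3 had counts in 12 libraries (median 1.06 CPM) and Acta1 in 18 of 18 (median 6.83, up to 124 CPM). Cd68, a macrophage gene, had a median of 23.0 CPM.

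The messages differed widely in level, and the low ones lay side by side on the genome. Levels were set per gene length, as normalised CPM per kilobase, and are medians over 18 libraries. The highest was mt-Nd1 at 438, followed by mt-Nd6 at 367 and mt-Nd2 at 350, all subunits of complex I, the NADH dehydrogenase. The next was mt-Co1, the catalytic subunit of cytochrome c oxidase (complex IV), at 309. mt-Cytb, the cytochrome b of complex III, stood at 166, and the complex I subunits mt-Nd5 and mt-Nd4 at 149 and 131. Then came a step. The 2 other cytochrome c oxidase subunits, mt-Co3 and mt-Co2, stood at 23.2 and 16.4. The ATP synthase subunits mt-Atp6 and mt-Atp8 stood at 22.9 and 3.40. The complex I subunits mt-Nd4l and mt-Nd3 were the lowest at 1.99 and 0.976. Together the 7 complex I messages held 59.3% to 83.8% of message counts in single libraries.

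The low messages occupy MT positions 7013 (start of mt-Co2) to 10173 (end of mt-Nd4l). A search of the 21 nuclear chromosomes of GRCm38 with the mitochondrial genome found this stretch whole on chromosome 1. There, chr1:24611535-24616188 (minus strand) matched MT:6390-11042 over 4654 aligned bases with 99.936% identity, that is 2 substitutions and 1 gap. The 2 substitutions lay in mt-Co1 and mt-Nd3 and the gap in mt-Tr. A second copy, chr2:22587288-22590534, matched MT:4441-7699 with 97.362% identity. The first 60 bases of mt-Co2 are shown because they let a reader see how little separates these loci. Capitals mark the bases at which the chromosome 2 copy differs from the mitochondrial sequence, and the chromosome 1 copy differs at none. All are given 5′ to 3′ along the gene.
mt-Co2, MT:7013-7072, plus strand: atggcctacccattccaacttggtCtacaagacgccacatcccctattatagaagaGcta
chromosome 1 copy, chr1:24615506-24615565, minus strand: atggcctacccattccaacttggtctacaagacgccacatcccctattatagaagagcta
chromosome 2 copy, chr2:22587903-22587962, minus strand: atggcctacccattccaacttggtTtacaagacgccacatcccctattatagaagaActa
A read from such a stretch could come from any locus with the same letters, and how the counting treated reads with several matches was not stated.

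The share of each message that is repeated elsewhere followed the step in level. Of all windows of 100 bases in mt-Co2, mt-Atp8, mt-Atp6, mt-Co3 and mt-Nd4l, 100.0% had an exact copy in a nuclear chromosome, as did 98.8% of those in mt-Nd3. The value was 60.8% for mt-Nd4, 30.8% for mt-Co1, 3.20% for mt-Nd2 and 0.0% for mt-Nd1, mt-Nd5, mt-Nd6 and mt-Cytb. The median level was 9.90 CPM per kilobase for the 6 messages wholly inside the chromosome 1 copy and 350 for the 5 messages outside it, a ratio of 35.3. Across the 13 messages, Spearman's rho between level and copied share was −0.803. This is a description across genes that were measured in the same libraries and lie on 1 genome. The part that read assignment has in the low levels was not tested.

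**Figure D1:**
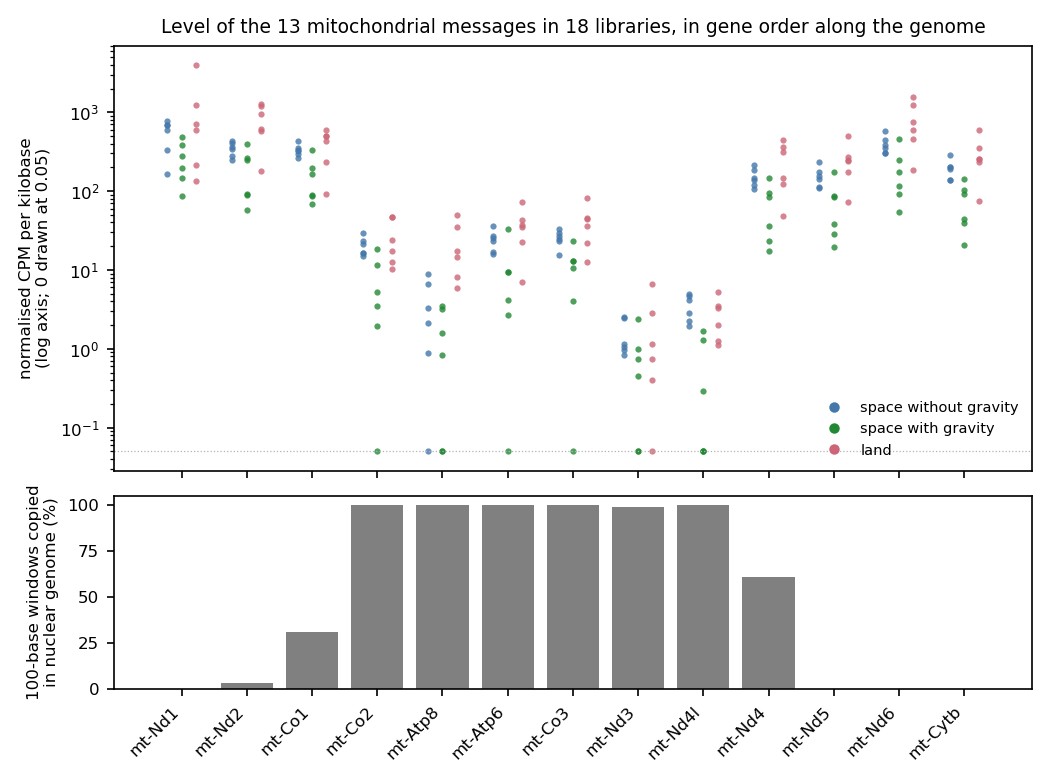
Upper panel: normalised CPM per kilobase (log axis, 0 drawn at 0.05) of the 13 mitochondrial messages in gene order, 1 point per library, coloured by regime. Lower panel: percent of 100-base windows of each message with an exact copy in a nuclear chromosome. The 6 messages from mt-Co2 to mt-Nd4l have medians between 0.976 and 23.2 and copied shares of at least 98.8%.

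The annotated genes of the chromosome 1 copy are unprocessed pseudogenes, and they were counted too. Gm28661, the copy of mt-Co2, held 1204 counts in all libraries together beside 1111 for mt-Co2 itself. Gm28437 held 2511 beside 1868 for mt-Co3, and Gm10925 held 1357 beside 1451 for mt-Atp6. Gm10222 held 291 beside 64 for mt-Nd4l, and Gm28438 held 170 beside 45 for mt-Nd3. For the partly copied messages the copies held less: Gm29216 had 4166 counts beside 44879 for mt-Co1, and Gm28439 had 1084 beside 19191 for mt-Nd4. With the copies' counts added, the median level of mt-Co3 became 55.2 CPM per kilobase, that of mt-Atp6 44.2, that of mt-Co2 37.2, that of mt-Nd4l 11.0 and that of mt-Nd3 3.55. These sums still lay below every message outside the copy, the lowest of which was mt-Nd5 at 149.

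The annotated ends of the messages bear on a poly(A)-selected library. By these ends the tail also completes the stop codon in 3 of the 13. As annotated, mt-Nd1 ends in a full stop codon. mt-Co3, mt-Nd4 and mt-Cytb end in a lone T, to which the A tail adds the rest. The last 2 bases of mt-Nd1 and of mt-Nd2 also belong to the next transfer RNA gene. Where the RNAs themselves end was not measured. Capitals mark the stop codon or the part of it that is encoded.
mt-Nd1, MT:3684-3707, plus strand: gcgggagtaccaccatacataTAG
mt-Co3, MT:9369-9390, plus strand: tccatttattgatgaggatctT
mt-Nd4, MT:11523-11544, plus strand: ctaattacaggcctgacaataT
mt-Cytb, MT:15267-15288, plus strand: aaaatactaaaattatatccaT
The 3 messages annotated with a tail-completed stop were not alike in level. mt-Cytb and mt-Nd4 stood at 166 and 131 CPM per kilobase and mt-Co3, inside the copied stretch, at 23.2.

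Transfer RNAs were sparse. The most abundant was mt-Tl1, a leucine transfer RNA, with 1959 counts in all libraries together. It was followed by mt-Tq (glutamine) with 337, mt-Ts1 (serine) with 274, mt-Ti (isoleucine) with 216 and mt-Tc (cysteine) with 208. mt-Te (glutamate) had 196 counts, mt-Tm (methionine) 154, mt-Tv (valine) 136 and mt-Ty (tyrosine) 126. The other 13 held between 0 and 104 counts each, and mt-Tk (lysine) and mt-Tr (arginine), both inside the chromosome 1 copy, had 0 in all 18 libraries. Of the 35 genes, 20 passed the filter on low counts and were tested, namely 11 messages and 9 transfer RNAs. mt-Nd3 (0 to 7 counts per library) and mt-Nd4l (0 to 11) did not pass. The filter asked for 3 libraries at 1.65 unscaled CPM or more. mt-Atp8 reached that level in 3 land libraries and 0 space libraries, and mt-Ti and mt-Tq reached it in 8 and 10 space libraries and 0 land libraries. These 3 genes were thus tested only through the libraries in which they were high, which bound the direction of any call between space and land. Each of the other 17 reached it in at least 1 library of all 3 regimes.

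Mitochondrial messages took the smallest share of counts in space with gravity and the largest on land. Counting error was small beside the spread between libraries: the highest share, 1.44%, had a Wilson 95% interval of 1.43 to 1.46. Without gravity and without nanoceria, messages were 0.584%, 0.770% and 0.427% of counts outside the 6 genes (mean 0.594 ± 0.172, SD, n = 3). With nanoceria they were 0.368%, 0.355% and 0.496% (0.406 ± 0.0777). The shares with gravity but no nanoceria were 0.261%, 0.205% and 0.441% (0.303 ± 0.123). The lowest group was space with gravity with nanoceria, at 0.105%, 0.102% and 0.182% (0.130 ± 0.0449), where the last value is the smallest library, with an interval of 0.129 to 0.255. On land without nanoceria the shares were 1.15%, 0.945% and 1.43% (1.18 ± 0.243). With nanoceria on land they were 0.480%, 0.173% and 1.44% (0.699 ± 0.664), so that this group spanned nearly the whole range of the others. From the lowest mean to the highest, the order was space with gravity with and then without nanoceria, space without gravity with and then without it, and land with and then without it. Neighbours in that order overlapped, except that all 3 libraries of space with gravity with nanoceria lay below all 3 without it.

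**Figure D2:**
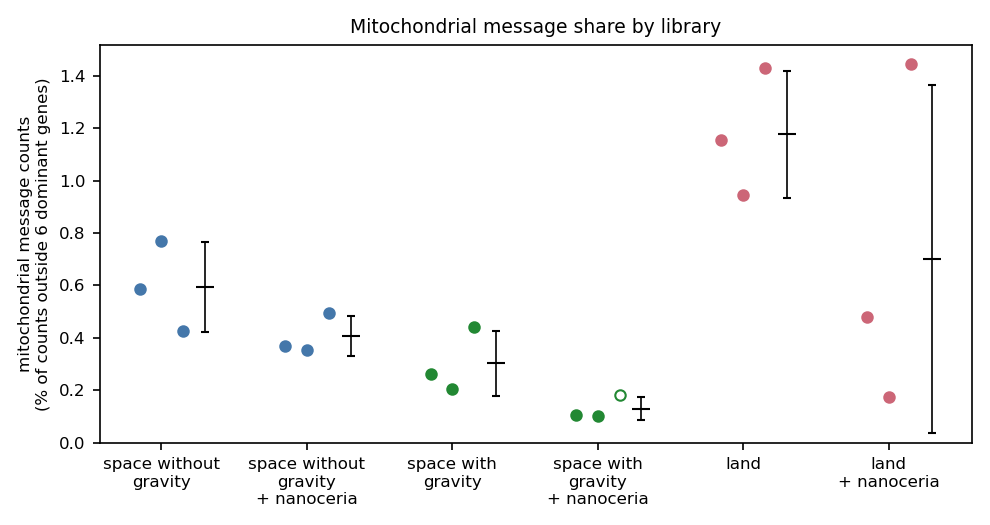
Percent of non-dominant counts (those outside the 6 genes) that lie in the 13 mitochondrial messages, by group. Points are libraries (the open circle is the smallest library), and bars show the mean ± SD (n = 3). The 3 libraries of space with gravity with nanoceria lie between 0.102% and 0.182%, and land with nanoceria runs from 0.173% to 1.44%.

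The shares were compared by 2-sided exact permutation, moving libraries only between groups alike in the other factor, with Benjamini-Hochberg adjustment over 16 tests of mitochondrial classes. Averaged over nanoceria, the message share fell by 0.722 percentage points in space with gravity against land (exact p = 0.01, adjusted 0.044, 12 libraries). It was higher by 0.284 points in space without gravity than in space with gravity (exact p = 0.01, adjusted 0.044). The smallest p that 12 libraries allow is 0.005. Both calls lay close to the threshold: each failed in 12 of the 18 settings that leave out 1 library, with adjusted exact p up to 0.08. The differences kept their sign in these settings, at 0.240 to 0.325 for gravity and −0.853 to −0.535 against land. An adjusted p also moves with the other tests among the 16, so these failures do not show dependence on a particular library. The difference of −0.438 points between space without gravity and land did not pass (exact p = 0.065, adjusted 0.116). Nor did the difference of −0.279 points with nanoceria averaged over the regimes (exact p = 0.0628, adjusted 0.116, 18 libraries). On log2 shares the nanoceria difference was −0.98 and passed (adjusted exact p = 0.0267). As a percent of all counts, the 6 dominant genes included, the gravity difference was 0.0822 points (adjusted exact p = 0.140) and that between space with gravity and land −0.188 (adjusted exact p = 0.171), and neither passed. The complex I part of message counts passed in none of the 4 comparisons. It was 68.3% ± 2.16 (SD, n = 6) in space with gravity, 66.5% ± 3.92 in space without gravity and 73.0% ± 6.99 on land.

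Gene by gene, every tested message was lower in space with gravity than on land, and 2 sparse transfer RNAs, mt-Ti and mt-Tq, were higher. In edgeR's quasi-likelihood test over 11558 genes, averaged over nanoceria, 11 of 11 tested messages and 2 of 9 transfer RNAs passed an adjusted p of 0.05. These counts include mt-Atp8, mt-Ti and mt-Tq, whose direction was bound by the filter. Of all genes tested, 14.0% passed in this comparison, 6.74% as lower and 7.22% as higher, while 31.9% had an unadjusted p under 0.05. Negative log2 fold changes made up 51.6% of all genes and positive ones 48.4%. The median log2 fold change was −2.19 for the tested messages, 0.14 for the tested transfer RNAs and −0.04 for all genes.

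Among complex I messages, mt-Nd2 shows the pattern. Its normalised CPM on land were 972, 595 and 1242 (no nanoceria) and 632, 185 and 1304 (nanoceria). The libraries with gravity gave 256, 270 and 412 (no nanoceria) and 94.1, 93.4 and 59.6 (nanoceria). The 59.6 is 5 counts of the smallest library. Its scaling factor was 3.86, against 0.403 to 1.37 in the others, and it lowers the normalised CPM of that library for every gene. By share of counts, the messages of that library were the highest of its group (0.182% against 0.105% and 0.102%). Land with nanoceria replicate 2 lay within the range of space with gravity and all other land libraries above it. The log2 fold change was −2.32 ± 0.45 (SE, adjusted p = 0.00704). mt-Nd6, the only message on the minus strand, ran from 28.5 to 234 CPM in space with gravity (median 74.8) and from 95.0 to 813 on land (median 354), a log2 fold change of −2.36 ± 0.51 (adjusted p = 0.00984). It shares 14 bases with mt-Nd5 on the other strand. Whether counting used strand was not stated, and without strand any read over mt-Nd6 would count for it, from either strand. mt-Nd5 had medians of 111 and 448 CPM, with a log2 fold change of −2.10 ± 0.46, and mt-Nd4 medians of 83.3 and 319, with −2.15 ± 0.50.

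mt-Nd1 had the widest spread of the messages among land libraries. Its CPM there were 205, 678 and 3825 (no nanoceria) and 574, 130 and 1193 (nanoceria). The libraries with gravity gave 372, 268 and 466 (no nanoceria) and 141, 187 and 83.4 (nanoceria). The 2 sets overlapped, and the log2 fold change of −2.13 ± 0.66 passed by little (adjusted p = 0.0406). It passed in 3 of the 18 fits that leave out 1 library. It did not pass under limma voom (−1.25, adjusted p = 0.143), nor in edgeR with the compared groups only (−2.15, adjusted p = 0.0686) or without the smallest library (−2.04, adjusted p = 0.0641).

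mt-Cytb of complex III had medians of 77.3 CPM in space with gravity and 292 on land, and a log2 fold change of −2.19 ± 0.45 (adjusted p = 0.00838). In complex IV, mt-Co1 had CPM of 772, 674 and 765 on land without nanoceria and 364, 140 and 917 with it. Its values with gravity were 258, 308 and 517 (no nanoceria) and 137, 133 and 107 (nanoceria), so the regimes overlapped at land with nanoceria. mt-Co1 had medians of 197 and 720 CPM and the smallest change of all messages, −1.47 ± 0.43 (adjusted p = 0.0316). It passed in 9 of the 18 fits that leave out 1 library. It did not pass in edgeR with no filter (−1.38, adjusted p = 0.147) or with the compared groups only (−1.49, adjusted p = 0.0850). mt-Co2 had medians of 3.00 and 14.2 CPM (−2.24 ± 0.50), and mt-Co3 of 9.19 and 31.5 (−1.79 ± 0.45). Both lie in the copied stretch, and so do the ATP synthase messages. mt-Atp6 had medians of 4.66 and 24.5 CPM (−2.25 ± 0.53).

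mt-Atp8 was the message with the largest fold and one of the sparsest. It had 11, 2 and 4 counts with gravity (no nanoceria) and 0, 2 and 0 (nanoceria). On land it had 73, 14 and 5 counts without nanoceria and 8, 6 and 22 with it. Its normalised CPM did not overlap between the 6 libraries of each regime, with at most 0.709 in space with gravity and at least 1.20 on land. It was the only tested member without overlap in this comparison, where 2.82% of all genes were lower without overlap. One of the libraries with 0 counts is the smallest, which is too shallow to show levels as low as those on land. As mt-Atp8 passed the filter only through land libraries, the missing overlap is no separate evidence of a difference. Pooled over libraries, 19 counts against 128 gave 0.0706 times the land level (exact 95% interval 0.0412 to 0.115, counting error only). The fitted log2 fold change, in a direction bound by the filter, was −3.99 ± 0.89 (adjusted p = 0.0111). With no filter on low counts it was −3.87 (adjusted p of edgeR 0.000599). That fit called 2242 of all genes in this comparison, against 1613 in the main fit. It also called 214 for nanoceria and 229 for gravity within space, where the main fit called 0. mt-Atp8 shares 43 bases with mt-Atp6, so reads from that overlap cannot be told apart.

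**Figure D3:**
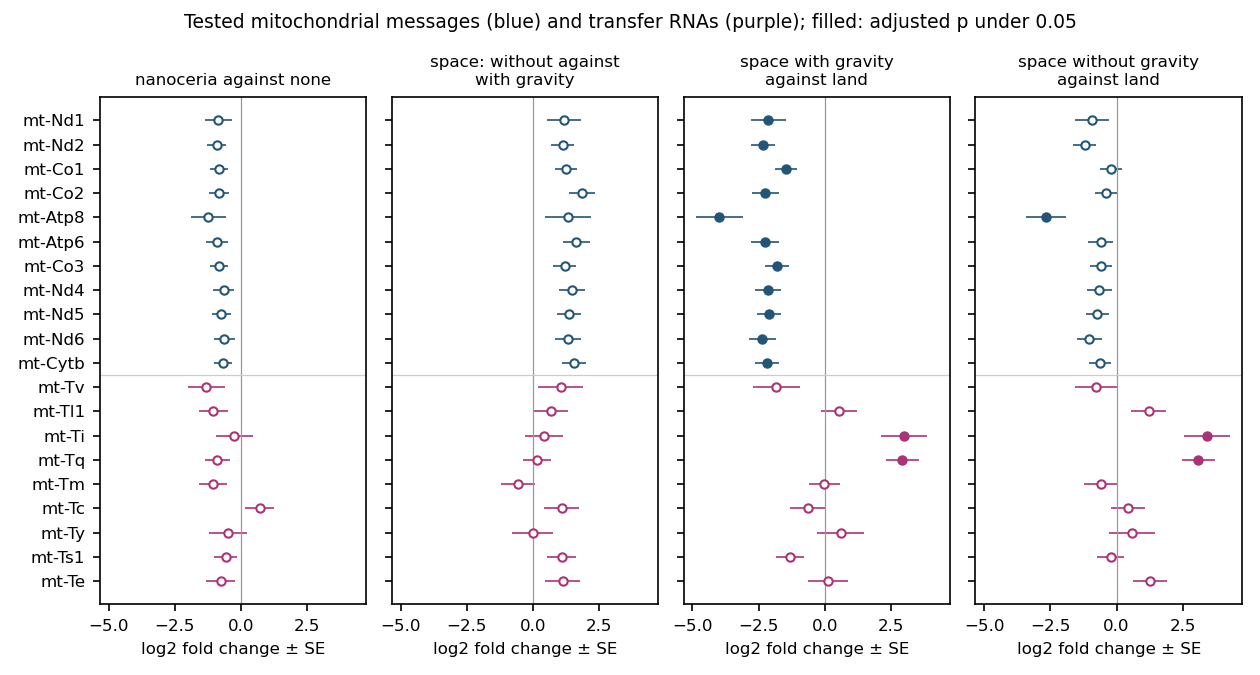
log2 fold change ± SE from edgeR for the 20 tested mitochondrial genes in 4 comparisons, each averaged over the other factor. Filled points passed an adjusted p of 0.05: 0 for nanoceria, 0 for gravity within space, 13 for space with gravity against land and 3 for space without gravity against land. Among these calls, the direction of mt-Atp8, mt-Ti and mt-Tq was bound by the filter, and they were the 3 of the last comparison.

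The number of calls depended on single libraries. With 1 library left out at a time, between 6 and 13 members passed in space with gravity against land, and 6 passed in all 18 of these fits: mt-Nd2, mt-Nd4, mt-Nd5, mt-Nd6, mt-Cytb and mt-Tq. Of these, mt-Tq had its direction bound by the filter, so its passing is no separate evidence. The count was 6 without space with gravity with nanoceria replicate 1, the deepest library of its group, and 12 without the smallest library. The share of the 6 dominant genes was lower in space with gravity than on land (mean 33.9% ± 11.1 against 65.5% ± 9.88, SD, n = 6). With that share as a covariate 0 members passed and 1 of all genes did. The log2 fold changes of the messages then ran from −3.22 (mt-Nd1) to −1.38 (mt-Co1). The part of the dominant genes in the result was not tested.

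Between space without gravity and land 1 message passed the test. All 11 tested messages had negative log2 fold changes, with a median of −0.66, and the one that passed was mt-Atp8 (−2.67 ± 0.76, adjusted p of edgeR 0.0488). Its direction was bound by the filter, as was that of mt-Ti and mt-Tq, the only other members that passed here. Of all genes, 5.25% passed, 2.44% as lower and 2.81% as higher, and 24.7% had an unadjusted p under 0.05, as had 3 of the 11 messages. Of all genes 51.0% were below 0 and 49.0% above. mt-Atp8 passed in 3 of the 18 fits that leave out 1 library. It did not pass under limma voom (−2.44, adjusted p = 0.0902), nor in edgeR with the compared groups only (−2.61, adjusted p = 0.0607) or without the smallest library (−2.69, adjusted p = 0.0530). With no filter it was −2.60 (adjusted p of edgeR 0.0173), in a fit that called 1466 of all genes here against 607 in the main fit. Without the smallest library 2 members passed here in place of 3. mt-Nd2 had CPM of 429, 372 and 449 without nanoceria and 293, 259 and 353 with it, inside the range of the land libraries, and a log2 fold change of −1.20 ± 0.43 (adjusted p = 0.101). mt-Nd2 did pass with DESeq2 (−1.49, adjusted p = 0.00540), with DESeq2 size factors in edgeR (−1.49, adjusted p = 0.0482) and in edgeR with a mean of at least 50 counts (−1.44, adjusted p = 0.0409). mt-Nd6 passed with DESeq2 (−1.31, adjusted p = 0.0369). mt-Co1 ran from 401 to 674 CPM, also inside the land range of 140 to 917, with −0.21 ± 0.42. Under limma voom with quality weights mt-Co1 and mt-Co2 turned positive, at 0.13 and 0.06.

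Within space, all 11 tested messages were at higher mean levels without gravity, but none passed the test. The log2 fold changes ran from 1.13 (mt-Nd2) to 1.86 (mt-Co2, ± 0.49, unadjusted p = 0.00141, adjusted p of edgeR 0.509), with a median of 1.34. At an unadjusted p under 0.05 there were 9 messages and 0 transfer RNAs, and 5.85% of all genes. Of all genes 52.9% were above 0 and 47.1% below. 0 members passed in edgeR, DESeq2 and limma voom alike, and 0.0% of all genes passed in edgeR. The difference was wider among nanoceria libraries (median 2.06, 9 messages at that p beside 5.78% of all genes, of which 55.2% were above 0 and 44.7% below) than without nanoceria (median 0.69, 0 messages at that p beside 4.05% of all genes). In the latter 49.3% of all genes were above 0 and 50.7% below. The test of that difference itself gave 0 members in edgeR, 0 of them at an unadjusted p under 0.05. Cytochrome b shows the overlap: mt-Cytb had CPM of 331, 232 and 230 in space without gravity without nanoceria and 157, 157 and 217 with it. With gravity it had 118, 104 and 162 (no nanoceria) and 45.6, 50.5 and 23.8 (nanoceria). The 23.8 is 2 counts of the smallest library, fewer than the 3 taken as the smallest signal. That library is also part of the wider difference among nanoceria libraries. Only space with gravity without nanoceria replicate 3, at 162, reached into the range of the libraries without gravity.

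With nanoceria the messages were at lower mean levels, and again none passed. Averaged over regimes, all 11 log2 fold changes were negative, from −1.23 (mt-Atp8) to −0.63 (mt-Nd6), with a median of −0.82. For comparison, 52.7% of all genes were below 0 and 47.3% above. There were 5 messages at an unadjusted p under 0.05, mt-Nd2 (−0.92 ± 0.36), mt-Co1, mt-Co2, mt-Co3 and mt-Atp6, beside 6.54% of all genes. The adjusted p of edgeR was at least 0.752 for all members, and 0 passed in edgeR, DESeq2 and limma voom, with 0.0% of all genes in edgeR.

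By regime, the nanoceria values were unequal. With gravity all 11 messages were lower with nanoceria, with a median of −1.84, and 8 had an unadjusted p under 0.05, against 4.46% of all genes. That group with nanoceria holds the smallest library. In space without gravity 10 of 11 were lower, with a median of −0.46, and 0 reached that p, against 3.97% of all genes, of which 50.4% were lower and 49.5% higher. On land 6 were higher and 5 lower, with a median of 0.08, and 0 reached that p, against 10.2% of all genes, of which 48.4% were higher and 51.3% lower. The test of whether the nanoceria effect differed between regimes gave 0 members in edgeR and in limma voom, with 0.0% of all genes, and 1 at an unadjusted p under 0.05, mt-Te. In the 9 comparisons of single groups edgeR called 0 members, of all genes at most 0.0433% in any. DESeq2 called 18 across them and limma voom 10, all between space and land, beside 3.20% and 2.55% of all gene tests in the 9. Of these, DESeq2 called 11 messages in space with gravity against land with nanoceria, where it called 7.73% of all genes. limma voom called 9 members in the same comparison without nanoceria, where it called 20.8% of all genes.

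Transfer RNAs did not follow the messages between space and land. Without gravity they made up 1.78%, 2.25% and 1.62% of mitochondrial counts (no nanoceria) and 1.61%, 2.49% and 2.25% (nanoceria). With gravity they made up 2.40%, 2.83% and 2.55% (no nanoceria) and 3.14%, 4.40% and 0.0% (nanoceria), the last being the smallest library. On land they made up 0.776%, 0.507% and 0.968% without nanoceria and 0.941%, 0.647% and 0.327% with it. Apart from the smallest library, every space library lay above every land library. Averaged over nanoceria the part was higher by 1.31 percentage points in space without gravity than on land (exact permutation p = 0.005, the smallest possible, adjusted 0.044). The adjusted exact p rose to at most 0.08, past the threshold, in 12 of the 18 settings that leave out 1 library. The difference stayed between 1.21 and 1.43 points there, and the libraries of these 2 regimes did not overlap. An adjusted p also moves with the other tests among the 16, so these failures do not show dependence on a particular library. The transfer RNA part was higher by 1.86 points in space with gravity than on land (exact p = 0.02, adjusted 0.064). Without the smallest library that difference was 2.49 points and passed (adjusted exact p = 0.0267). It was then also lower by 1.18 points without gravity than with gravity in space (adjusted exact p = 0.0267), against −0.554 with all libraries (adjusted 0.566). This measure is a ratio, and its denominator holds the messages that were lower in space.

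**Figure D4:**
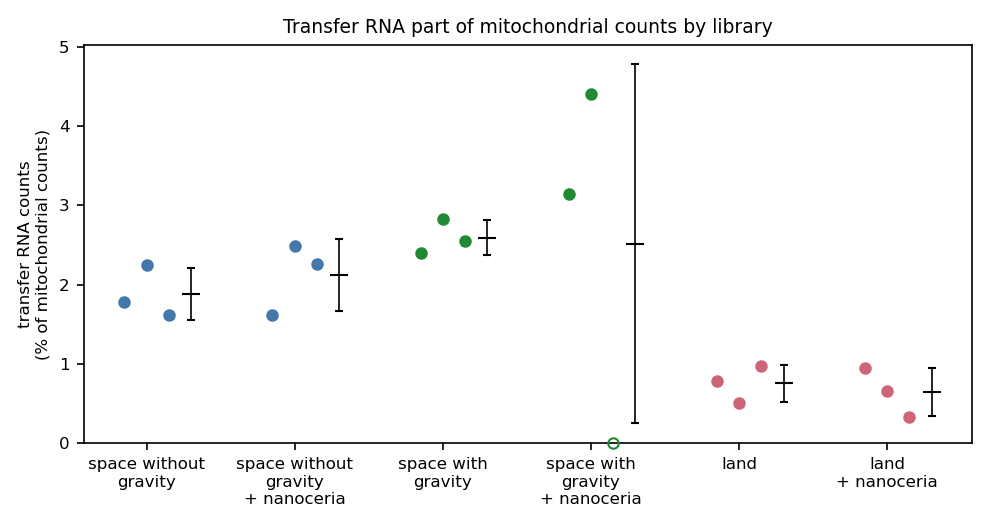
Counts in the 22 mitochondrial transfer RNAs as a percent of all mitochondrial counts, by group. Points are libraries (the open circle is the smallest library, at 0), and bars show the mean ± SD (n = 3). Land libraries lie between 0.327% and 0.968%, and space libraries other than the smallest between 1.61% and 4.40%.

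As a share of counts outside the 6 dominant genes, transfer RNAs did not pass between space and land. The means were 0.0103% ± 0.00418 (SD, n = 6) in space without gravity, 0.00535% ± 0.00381 in space with gravity and 0.00637% ± 0.00449 on land. With nanoceria the share fell by 0.00467 percentage points (exact permutation p = 0.011, adjusted 0.044, 18 libraries). It did not pass in 15 of the 18 settings that leave out 1 library. Without the smallest library the difference was −0.004218 (adjusted exact p = 0.056), and as a percent of all counts −0.00221 (adjusted exact p = 0.107). Between space with gravity and land the difference of −0.00102 became 0.00110 as a percent of all counts.

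The transfer RNAs that passed, mt-Ti and mt-Tq, are neighbours on opposite strands that share 3 bases, and mt-Ti shares 2 bases with the end of mt-Nd1. Their sequences are shown because they are the 2 transfer RNAs that passed against land, with the anticodon of mt-Ti in capitals and none marked in mt-Tq.
mt-Ti, MT:3706-3774, plus strand: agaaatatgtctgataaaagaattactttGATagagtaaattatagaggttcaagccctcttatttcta
mt-Tq, MT:3772-3842, minus strand: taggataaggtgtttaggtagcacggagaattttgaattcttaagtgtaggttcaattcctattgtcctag
mt-Tq reads the glutamine codons. It had 56, 55 and 39 counts with gravity (no nanoceria) and 44, 11 and 0 (nanoceria). Without gravity it had 19, 16 and 22 counts (no nanoceria) and 20, 19 and 21 (nanoceria). On land it had 7, 2 and 4 counts without nanoceria and 2, 0 and 0 with it. In normalised CPM all 6 libraries without gravity, at 2.68 or more, lay above all 6 land libraries, at 1.31 or less, where 1.23% of all genes were higher without overlap. Against land the log2 fold change was 3.10 ± 0.62 without gravity (adjusted p of edgeR 0.0147) and 2.94 ± 0.63 with gravity (adjusted p 0.00956). The filter bound the direction of these values. With no filter the values were 3.14 (adjusted p of edgeR 0.00170) and 3.04 (adjusted p 0.00230). The fit with no filter called 1466 and 2242 of all genes in these comparisons, against 607 and 1613 in the main fit. Pooled counts gave ratios of 6.05 (exact 95% interval 3.52 to 11.2) and 6.50 (3.85 to 11.8), for counting error only.

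mt-Ti, which decodes isoleucine and whose direction against land the filter also bound, was sparser. On land it had 0, 2 and 1 counts without nanoceria and 2, 0 and 0 with it. With gravity it had 60, 36 and 10 counts (no nanoceria) and 20, 7 and 0 (nanoceria). Without gravity it had 23, 2 and 8 (no nanoceria) and 11, 12 and 22 (nanoceria). Pooled, 133 counts with gravity and 78 without stood against 5 on land, ratios of 12.7 (exact 95% interval 5.29 to 39.6) and 12.1 (4.97 to 38.3). These intervals cover counting error only, not the spread between libraries. The log2 fold change was 3.01 ± 0.88 with gravity (adjusted p of edgeR 0.0315) and 3.42 ± 0.87 without (adjusted p 0.0333). It did not pass under limma voom with gravity (2.97, adjusted p = 0.0517) or without (2.85, adjusted p = 0.0779), nor in edgeR with the compared groups only without gravity (3.41, adjusted p = 0.0651). With no filter, in the same fit that called more of all genes, it was 3.10 with gravity (adjusted p of edgeR 0.0108) and 3.47 without (adjusted p 0.00388). Fitted folds of such low counts depend on the prior count. Leaving out 1 library at a time gave 0 to 4 called members in space without gravity against land, with 0 without land without nanoceria replicate 2. mt-Tq passed in 17 of these 18 fits and mt-Ti in 9. In space with gravity against land mt-Tq passed in 18 and mt-Ti in 12.

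**Figure D5:**
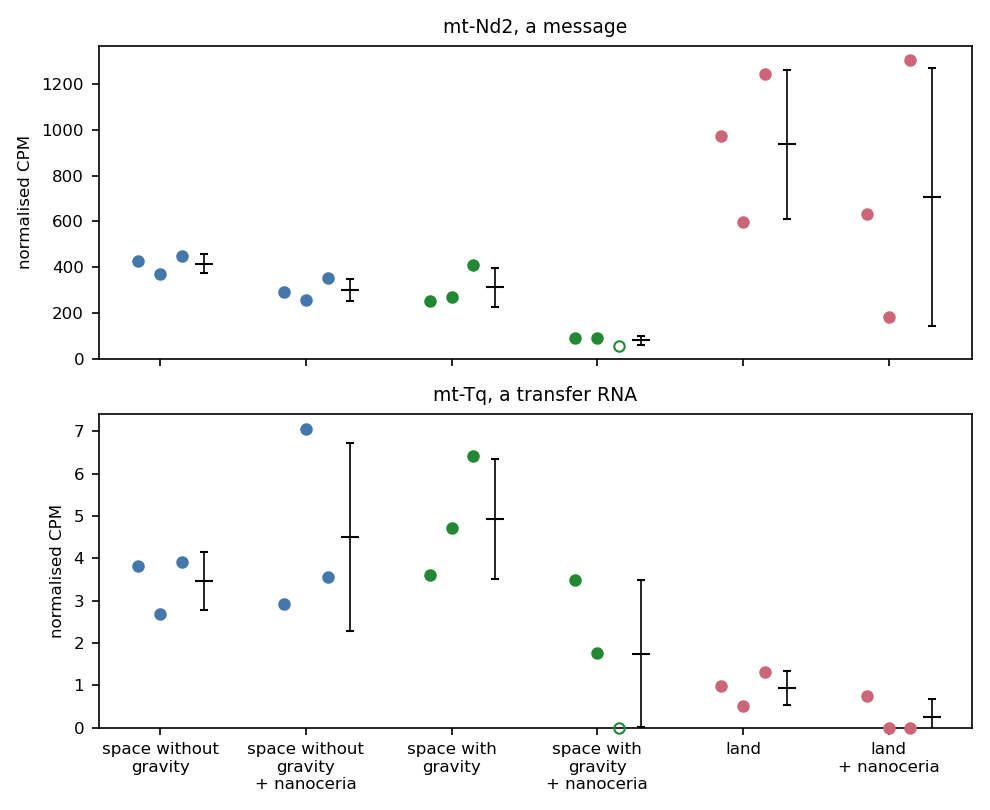
Normalised CPM of the message mt-Nd2 (upper panel) and the transfer RNA mt-Tq (lower panel) by group. Points are libraries (the open circle is the smallest library), and bars show the mean ± SD (n = 3). mt-Nd2 reaches its highest values on land, 1242 and 1304, whereas mt-Tq is at or below 1.31 in all land libraries.

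The other 7 tested transfer RNAs did not pass in edgeR in any averaged comparison. mt-Tl1, which lies directly before mt-Nd1, ran from 16.2 to 35.7 CPM in space without gravity (median 25.3), from 0 to 31.9 with gravity (median 16.9) and from 0.843 to 58.2 on land (median 4.25). Its log2 fold change against land was 1.22 ± 0.67 without gravity and 0.55 ± 0.68 with gravity. Under limma voom it was 2.46 without gravity and passed (adjusted p = 0.0118). mt-Te had medians of 2.25, 1.31 and 0.652 CPM in the same order, mt-Tc 2.72, 1.21 and 2.09, and mt-Ts1 3.23, 1.29 and 3.91. mt-Ts1 was lower in space with gravity than on land by DESeq2 (−1.62, adjusted p = 0.0397) and with DESeq2 size factors in edgeR (−1.69, adjusted p = 0.0476). mt-Tm had 0.780, 1.25 and 1.00, mt-Ty 1.07, 1.15 and 0.384, and mt-Tv 0.771, 0.287 and 0.894. In all of these the regimes overlapped. Among the untested ones, mt-Th (histidine) had 0 counts in all 6 land libraries, 24 in space with gravity and 8 in space without gravity. The exact 95% lower limit of the pooled ratio to land was 2.86 with gravity and 1.32 without, for counting error only. mt-Ta (alanine) also had 0 on land, with 6 counts with gravity and 10 without, and mt-Tt (threonine) had 0 on land and 6 counts in all. mt-Th was singled out after its counts were seen, and 88.2% of the 100-base windows that contain it have a nuclear copy.

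The chromosome 1 copies went with the messages they resemble. In space with gravity against land 5 of the 7 copy genes passed as lower, beside 6.74% of all genes. They were Gm28439 (log2 fold change −2.09 ± 0.54), Gm10925 (−2.00 ± 0.47), Gm28437 (−1.89 ± 0.46), Gm28661 (−1.86 ± 0.46) and Gm29216 (−1.69 ± 0.49). Gm10222 was at −1.10 ± 0.60 and Gm28438 at 0.40 ± 0.73, and neither passed. In the other 3 averaged comparisons 0 of 7 passed in edgeR. Of all genes, 0.0% passed for nanoceria and for gravity within space, and 5.25% in space without gravity against land. For nanoceria 4 copy genes had an unadjusted p under 0.05, beside 6.54% of all genes. For gravity within space 5 had, beside 5.85%, and for space without gravity against land 0 had, beside 24.7%. Reads of a message and of its copy cannot be told apart where the letters are the same.

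Nuclear genes that serve expression of the mitochondrial genome were counted list by list. Of 7 tested genes of mitochondrial transcription 0 passed in any averaged comparison. Polrmt, the RNA polymerase of the organelle, had log2 fold changes against land of 0.29 ± 0.73 with gravity and 0.44 ± 0.73 without. Tfam, which packages the genome and starts transcription, had 0.62 ± 0.37 and 0.56 ± 0.36. Lrpprc and Slirp, the pair that stabilises messages, had 0.92 ± 0.48 and −0.42 ± 0.39 with gravity against land, and none of the 9 tested genes of RNA stability and polyadenylation passed. Ppargc1a, a regulator of organelle biogenesis, had −5.87 ± 1.95 without against with gravity (adjusted p of edgeR 0.660), and 0 of 6 biogenesis regulators passed. Of 12 genes of RNA cleavage and maturation 3 passed, beside 14.0% of all genes: Tbrg4 (2.12 ± 0.44) was higher and Hsd17b10 (−1.75 ± 0.53), a subunit of mitochondrial RNase P, and Ptcd2 (−1.43 ± 0.41) were lower in space with gravity than on land. Trmt61b, a methyltransferase of mitochondrial RNA, was 1 of 4 tested rRNA modification genes. It was higher against land with gravity (3.71 ± 0.80) and without (2.94 ± 0.81), where 7.22% and 2.81% of all genes passed as higher. Vdac3, an outer membrane channel, was the only 1 of 14 import and matrix genes to pass (1.46 ± 0.38). It was higher in space with gravity than on land, where 14.0% of all genes passed, 7.22% as higher. Of 10 genes of genome replication and nucleotide supply and 2 tested short RNAs without tails, 0 passed.

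The respiratory complexes also hold subunits encoded in the nucleus. In space with gravity against land 12 of 76 tested nuclear subunits passed as lower and 0 as higher, with a median log2 fold change of −0.63, beside 6.74% of all genes lower. Ndufa3 (−1.80 ± 0.41), Atp5d (−1.42 ± 0.37), Ndufa2 (−1.47 ± 0.39) and Ndufs6 (−1.27 ± 0.35) had the smallest p. Of 76 mitochondrial ribosomal proteins 11 were lower, among them Mrpl52 (−2.17 ± 0.42), Mrpl43 (−1.79 ± 0.37), Mrps16 (−2.16 ± 0.49) and Mrpl28 (−1.79 ± 0.46), and 2 were higher, Mrps5 (1.32 ± 0.40) and Mrps31 (1.98 ± 0.56). In space without gravity against land 1 nuclear subunit, Ndufa3 (−1.94 ± 0.40), and 5 of 76 ribosomal proteins passed as lower, beside 2.44% of all genes. That is 1 of 76 for the subunits, a share below that of all genes. In the other 2 averaged comparisons 0 of these genes passed in edgeR, as did 0.0% of all genes.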

How the data were processed

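The authors deposited 1 file of raw counts per gene for each of the 18 polyadenylated RNA libraries, with each gene's coordinates and length per the file headers. The submitters' processing notes name CASAVA, Trimmomatic 0.36.29, STAR, Subread, featureCounts and the build GRCm38.p6. The use of strand and of reads with several matches is not given in the sources used here. The 18 small RNA samples were left aside.

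The main test was edgeR 4.0.16 on the deposited counts (filterByExpr, TMM scaling, robust quasi-likelihood fit of 6 group means over all 18 libraries, 12 residual degrees of freedom), with Benjamini-Hochberg adjustment over all 11558 genes. Normalised CPM used the same scaling. Class shares were tested with exact permutations in Python 3.11.15 with scipy 1.17.1. Mitochondrial ribosomal RNA was not analysed here, and shares of transfer RNA were tested in its place, a choice made after the data were seen. Nuclear copies were found with blastn 2.17.0 and by exact windows of 50, 75 and 100 bases. Sequences were read from the RefSeq GRCm38.p6 genome, and gene types from GENCODE M21.

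Replicate numbers follow record order and pair no libraries. No 2 libraries were identical. Tested members are given by library in the text or a plot, or by lowest, median and highest, and all 4 averaged comparisons stand in the plot of fold changes. Machinery genes are named when past the threshold (at most 4 a list, by smallest p), and Polrmt, Tfam, Lrpprc, Slirp and Ppargc1a always. The 2 higher ribosomal proteins were named after their values were seen. The members and lists were chosen with earlier results of these data known. The fit was tested on simulated data. Alternatives were DESeq2 1.42.0 and its size factors, limma 3.58.1 voom, other filters and scalings, a dominant-gene covariate, compared groups only, other denominators, log2 shares, low-copy genes only, and each library left out.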

Additional observations from a re-analysis of the deposited data

How the results depend on the processing

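No paired analysis was possible because the labels give no replicate numbers shared between groups. DESeq2 size factors moved the median of log2 fold changes over all genes to −0.39 in space with gravity against land and −0.28 in space without gravity against land, and the tested messages stayed lower there. Called members in space with gravity against land numbered 0 with the dominant-gene share as a covariate. In space without gravity against land they numbered 1 with a mean of at least 50 counts (fewer genes tested), 1 with the compared groups only, 0 with the covariate and 5 with DESeq2. In the same order 585, 387, 6 and 1524 of all genes were called there, against 607 in the main fit. Over the 9 single-group comparisons called members numbered 9 with no filter, 7 with a mean of at least 50 counts, 18 with DESeq2 and 10 with voom. DESeq2 called 3.20% and voom 2.55% of all gene tests, and the share for the other settings is not given here. With each library left out, called members ranged from 6 to 13, 0 to 4 and 0 to 7, the 7 without land with nanoceria replicate 2. Apart from the filter, the cause was not tested.

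Of all counts, the message share differed by 0.0822 points for gravity and −0.188 for space with gravity against land, and the transfer RNA share by −0.002212 for nanoceria and 0.001098 for space with gravity against land. On log2 shares the nanoceria message difference was −0.98. Without the smallest library the transfer RNA share differed by −0.004218 for nanoceria, and the transfer RNA part of mitochondrial counts by −1.18 for gravity and 2.49 for space with gravity against land. With low-copy genes only, the complex I part differed by 0.976 for space with gravity against land and the transfer RNA part by −0.0174 for nanoceria. With 1 library left out, the message share ranged from −0.403 to −0.191 for nanoceria, 0.240 to 0.325 for gravity, −0.853 to −0.535 for space with gravity against land and −0.569 to −0.251 for space without gravity against land. The complex I part ranged from −0.235 to 2.84 for nanoceria. The transfer RNA share ranged from −0.005466 to −0.003677 for nanoceria and −0.002137 to 0.000154 for space with gravity against land. The transfer RNA part ranged from −0.300 to 0.434 for nanoceria, −1.18 to −0.0817 for gravity, 1.39 to 2.49 for space with gravity against land and 1.21 to 1.43 for space without gravity against land.

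The log2 fold changes of single genes that changed sign belonged to members not called in that comparison. Under voom mt-Ti was −0.1263 for gravity, mt-Tm 0.0317 and mt-Tc 0.1887 for space with gravity against land, and mt-Co1 0.1253, mt-Ts1 0.3834 and mt-Co2 0.0636 for space without gravity against land. With the covariate mt-Tm was 0.2838, mt-Tc 0.0819 and mt-Te −0.0119 for space with gravity against land. There mt-Tm was also 0.01 with dominant genes removed and 0.09 with no filter, and mt-Te −0.2323 with DESeq2 size factors and −0.0326 with DESeq2. For gravity mt-Ty was 0.1379 with DESeq2 size factors, 0.0106 with the compared groups only, 0.0223 with DESeq2 and 0.0046 without the smallest library. With 1 library left out, ranges for gravity were −0.3477 to 1.8448 (mt-Tv), −0.216 to 0.67 (mt-Ti), −0.0776 to 0.4714 (mt-Tq), −0.9226 to 0.5164 (mt-Tm) and −0.3698 to 0.1962 (mt-Ty). For nanoceria mt-Ti ranged from −1.4121 to 0.1718. For space with gravity against land mt-Tm ranged from −1.0809 to 0.4885 and mt-Te from −0.0807 to 0.9904. For space without gravity against land the ranges were −1.1711 to 0.0072 (mt-Nd1), −0.3985 to 0.2542 (mt-Co1), −0.4765 to 0.168 (mt-Ts1) and −0.5587 to 0.0211 (mt-Co2).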

Other observations

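The balance between neighbouring messages varied between libraries. Per length, the ratio of mt-Nd1 to mt-Nd2 counts ran from 0.229 in land without nanoceria replicate 1 to 3.34 in land without nanoceria replicate 3, with a median of 1.33 over the 17 libraries other than the smallest. The ratio of mt-Nd6 to mt-Nd5 ran from 1.78 to 4.52, with a median of 2.61, and that of mt-Co2 to mt-Co1 from 0.0223 to 0.113, with a median of 0.0586. The transfer RNA mt-Tl1, which lies directly before mt-Nd1, had 6 counts in land without nanoceria replicate 1 and 177 in replicate 3, the libraries with the lowest and highest of these mt-Nd1 ratios. These values were singled out after they were seen, and their cause was not tested.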
